A study of Rattus norvegicus with 6 samples.

Results

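The genes described here are 3 that handle purines at the cell surface: Slc28a2, Enpp1 and P2rx2. They were chosen by probe name, with their head and tail values in these same arrays already known, so their differences between regions are a description and carry no test. Slc28a2 and Enpp1 were brighter on each head array than on any tail array, and P2rx2 overlapped between the regions. With each array scaled to an upper percentile of its own probes, the mean head level was 2.34-fold the tail level for Slc28a2 and 1.94-fold for Enpp1. Without scaling these were 3.4-fold and 2.82-fold. Under an alternative scaling given below, the arrays of Slc28a2 overlapped. Of all probes with 6 values, 5.09% had no overlap with the head higher, and 24.9% had none in either direction. The 3 genes are among the 30 that could be named on an array of 38804 probes other than controls. RNA came from the pancreatic islets of male rats, the clusters of endocrine cells that secrete insulin, glucagon and other hormones, and the islets of the head (duodenal side) and of the tail (splenic side) were prepared apart after collagenase had been infused through the bile duct. Each region had 3 samples numbered 1 to 3, each hybridised to 1 single-colour array. No genotype, strain or treatment separates the samples beyond region, and the labels do not say how many animals stand behind a sample. The titles of all 6 samples begin with 24W, which may be an age in weeks but is not explained in the labels. The spread between samples may be partly technical. None of 20 marker genes of islet, exocrine, duct, vessel, stromal and immune cells could be named on the array, so the islet label could not be checked against the data.

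Purine nucleosides enter cells through sodium-coupled concentrative carriers, encoded by the Slc28 family, and through equilibrative carriers of the Slc29 family. Outside the cell, ATP acts as a signal that surface enzymes end by cleaving it stepwise towards adenosine. Insulin granules of beta cells carry ATP and release it together with insulin. Slc28a2 encodes CNT2, the concentrative carrier that prefers purine nucleosides and also takes up uridine. Enpp1 encodes an ectonucleotide pyrophosphatase that splits ATP into AMP and pyrophosphate, and it is known for restraining mineralisation through that pyrophosphate and for binding the insulin receptor. P2rx2 encodes a subunit of the P2X receptors, trimeric cation channels that open when extracellular ATP binds. Of a list of 43 genes of purine transport, breakdown, salvage and signalling, these 3 were the ones that could be named on the array, so the rest of the pathway was not analysed here.

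Slc28a2 is the member with the largest difference in the main scaling and the one with an entry among the RefSeq promoter sequences used here. The 250 bases before the transcription start of that entry are printed (GRCr8, chr3:129819538-129819787, plus strand). The entry was taken by gene symbol and was not matched to the transcript that the probe reads. Capitals mark matches to motifs searched on both strands. The start site used lies inside the annotated span of the gene, so it is not the most 5′ start.
Slc28a2: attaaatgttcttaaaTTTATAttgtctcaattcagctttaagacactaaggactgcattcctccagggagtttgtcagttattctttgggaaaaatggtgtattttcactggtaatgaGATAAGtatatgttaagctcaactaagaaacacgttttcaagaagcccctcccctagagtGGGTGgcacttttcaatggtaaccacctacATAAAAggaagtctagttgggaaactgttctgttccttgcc
The window held 1 forward match to ATAAAA, which resembles the TATA box and whose first base lies 41 bases before the start, and 18.6% of 33469 promoter windows of the same length held that motif on either strand. It held the TATA box motif itself (TATAAA) on the reverse strand (234 bases before the start; 12.9% of windows), CACCC on the reverse strand (71 bases before; 49.2%) and GATAAG on the forward strand (131 bases before; 6.18%). The CCAAT box, the GC box (GGGCGG), the E-box (CACGTG), the AP-1 site (TGACTCA) and the CRE (TGACGTCA), which were in 34%, 30.5%, 5.59%, 4.05% and 1.59% of windows, had no match in these letters. The window was 38% G or C, against a median of 51.2% over all windows. These 4 matches did not overlap each other. A match is a run of letters and not a measured site.

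Each gene was read by 1 probe (A_44_P1024721 for Slc28a2, transcript NM_031664, A_43_P12841 for Enpp1, transcript NM_053535, and A_44_P288091 for P2rx2, transcript NM_053656), printed in 10 spots scattered over the array. All 10 spots of each gene were well above background on each of the 6 arrays, and none was saturated. The sequences of these probes, and so the part of the transcript each one reads, were not used here. A relative level below is the mean log2 processed signal of a gene's spots minus the array's 75th percentile over probes. It is relative to its array and does not compare transcript amounts between genes.

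On the scanner's own scale, before any adjustment between arrays, Slc28a2 was brighter on each head array than on any tail array. Its geometric mean signal was 275 on the array of tail replicate 1, 88.8 on that of replicate 2 and 172 on that of replicate 3. On the head arrays, in the same order, it was 452, 370.4 and 988. The arrays themselves differed in brightness, with a 75th percentile of 264, 114 and 117 in the tail and 203, 207 and 259 in the head, so part of such a gap is shared by other probes. Enpp1 gave 103, 71.6 and 52.3 in the tail and 220.5, 174 and 226 in the head, again without overlap. P2rx2 was dim, at 46.9, 15.2 and 11.7 in the tail and 23.5, 14.2 and 28.6 in the head. Its brightest array was a tail array and its dimmest was another tail array, so the regions overlapped fully on this scale.

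**Figure D1:**
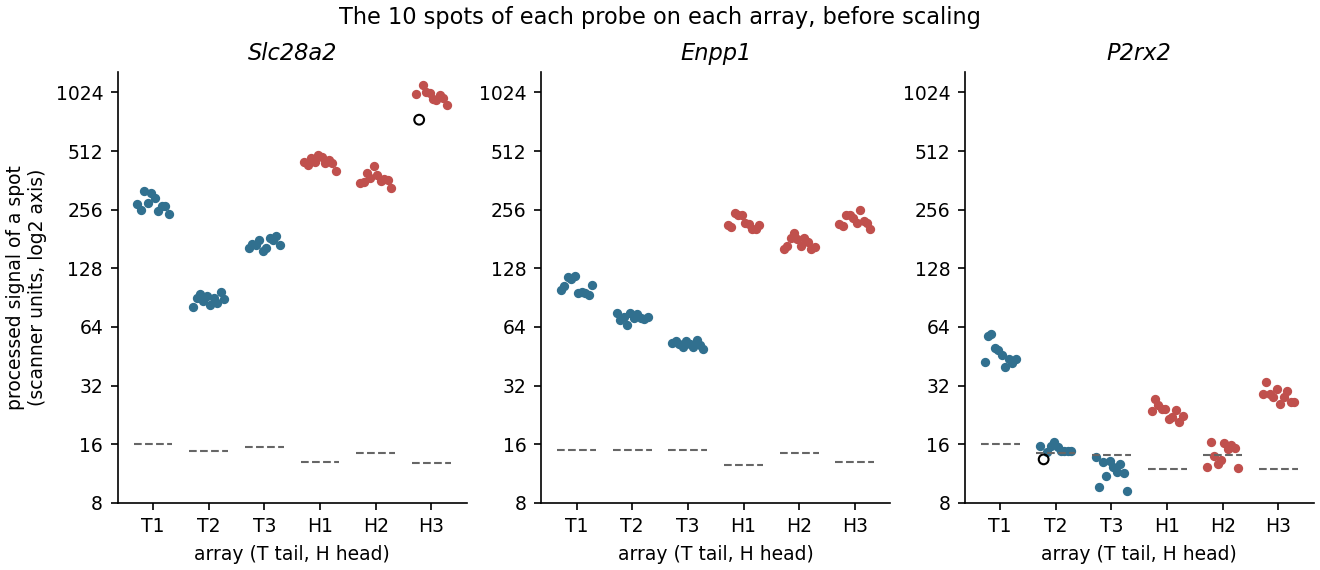
Processed signal of each of the 10 spots (log2 axis, scanner units) of the 3 probes on the tail arrays (T1 to T3, blue) and head arrays (H1 to H3, red); dashed lines are the median local background reading around the spots and open circles are the spots left out as outliers. Spots of an array lie close together, and P2rx2 lies near the local background in tail replicates 2 and 3 and head replicate 2.

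The SD over the spots of an array was below the SD between the arrays of a region for each gene. For Slc28a2 the former was 0.08 to 0.13 log2 units on each array, and the SD of its relative level between arrays was 0.56 in the head and 0.46 in the tail. For Enpp1 the SD over spots was 0.05 to 0.12, against 0.20 and 0.35 between arrays, and for P2rx2 it was 0.06 to 0.19, against 0.42 and 0.41. The noise that the spots of an array share, from labelling and hybridisation, is not in the SDs over spots but is part of the SDs between arrays. An outlier spot was left out for Slc28a2 in head replicate 3 (signal 742, against 888 to 1121 for the others) and for P2rx2 in tail replicate 2. Single spots of Enpp1 did not overlap between regions: the lowest head spot stood at -0.36 relative to the 75th percentile and the highest tail spot at -0.61. Those of Slc28a2 just met, with the lowest head spot at 0.68 in head replicate 2 and the highest tail spot at 0.69 in tail replicate 3. Some arrays shared a pattern over spot positions. The Pearson r between 2 arrays over the 10 spots of Slc28a2 ran from -0.48 to 0.90 over 15 pairs of arrays and was above 0 in 10, with 0.85 for head replicate 1 and 0.90 for head replicate 2 against tail replicate 1. For Enpp1 it ran from -0.23 to 0.86 and for P2rx2 from -0.50 to 0.87, and the 2 highest values of each again joined tail replicate 1 and head arrays or head arrays with each other.

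P2rx2 was the member nearest to background. Its background-subtracted signal was 2.93, 1.05 and 0.83 times the median local background reading in tail replicates 1 to 3, and 1.96, 1.01 and 2.38 times in head replicates 1 to 3. For Slc28a2 the same ratio ran from 6.02 in tail replicate 2 to 77.5 in head replicate 3, and for Enpp1 from 3.49 in tail replicate 3 to 17.6 in head replicate 1. The dimmest single P2rx2 spot gave a signal of 9.25, where the dimmest spot well above background on that array gave 4.49. Slc28a2 and Enpp1 were therefore measured well clear of background in both regions, and P2rx2 was detected on all 6 arrays but with little room above it on 3 of them.

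Relative to each array's 75th percentile, the carrier gene Slc28a2 stood at 0.06, -0.36 and 0.56 in tail replicates 1 to 3, and at 1.16, 0.84 and 1.93 in head replicates 1 to 3. Each head array was above each tail array, and number 2 was the lowest and number 3 the highest in both regions. Head islets averaged 1.31 ± 0.56 and tail islets 0.08 ± 0.46 (SD, n = 3 each), a head level 2.34-fold the tail level (log2 difference 1.23, SE 0.40 in the limma fit over all tested probes). The smallest of the 9 differences between a head and a tail array was 0.28, head replicate 2 against tail replicate 3, and the largest was 2.30. Of the 27 named genes bright enough to test, 22 had a higher mean in the head. The median difference over all tested probes was -0.23, so most tested probes were lower in the head. Such signs depend on the scaling, and that median was 0.31 unscaled. Whether the named genes differ from other probes as a class was not tested. Among the 27 named genes, Slc28a2 had the largest difference after scaling to the 75th percentile. It ranked 3 after quantile normalization, where Cyp2e1 differed by 1.25, and 2 in the authors' deposited table. It also ranked 3 without tail replicate 1, tail replicate 2 or head replicate 3.

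Same-numbered arrays were treated as pairs because the protocol cuts each pancreas into both parts. The labels do not say whether same-numbered samples share animals. Within these pairs, the Slc28a2 difference was 1.10 in pair 1, 1.21 in pair 2 and 1.37 in pair 3. These 3 values had an SD of 0.14, less than the SD between samples of either region. This evenness depends on the scaling. Unscaled, the 3 differences were 0.72, 2.06 and 2.52 (SD 0.94, against 0.75 between head and 0.82 between tail samples). In the main scaling, 68.1% of the sum of squares of Slc28a2 over the 6 arrays lay between regions. Between numbers lay 31.3%, and 0.583% in what neither accounts for. The medians over all tested probes were 32.3%, 45% and 15.2%. With the replicate number as a block the SE of the Slc28a2 difference was 0.25.

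The pyrophosphatase gene Enpp1 stood at -1.36, -0.68 and -1.16 in tail replicates 1 to 3, and at 0.12, -0.25 and -0.20 in head replicates 1 to 3. The head arrays lay within 0.37 log2 units of each other and above the tail arrays. The means were -0.11 ± 0.20 and -1.06 ± 0.35 (SD, n = 3 each), a head level 1.94-fold the tail level (log2 difference 0.95, SE 0.29). All 9 differences between a head and a tail array were above 0, from 0.42 to 1.48.

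In the main scaling, unlike Slc28a2, Enpp1 did not keep an even distance within pairs. Its head minus tail difference was 1.48 in pair 1, 0.42 in pair 2 and 0.96 in pair 3 (SD 0.53). Tail replicate 2 was the highest tail array and head replicate 2 the lowest head array, so 2.89% of its sum of squares lay between numbers, 80.7% between regions and 16.5% in the remainder. The replicate block left its SE at 0.27, close to the 0.29 without it.

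The receptor gene P2rx2 leaned the other way and overlapped. It stood at -2.49, -2.91 and -3.32 in tail replicates 1 to 3, and at -3.11, -3.86 and -3.18 in head replicates 1 to 3. Tail replicate 3 fell below 2 of the head arrays. Head islets averaged -3.38 ± 0.42 and tail islets -2.91 ± 0.41 (SD, n = 3 each), a log2 difference of -0.48 (SE 0.32), which is about the spread between samples of a region. The difference was -0.62 and -0.95 in pairs 1 and 2 and 0.14 in pair 3 (SD 0.56). Head was higher in 2 of the 9 comparisons of a head with a tail array.

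**Figure D2:**
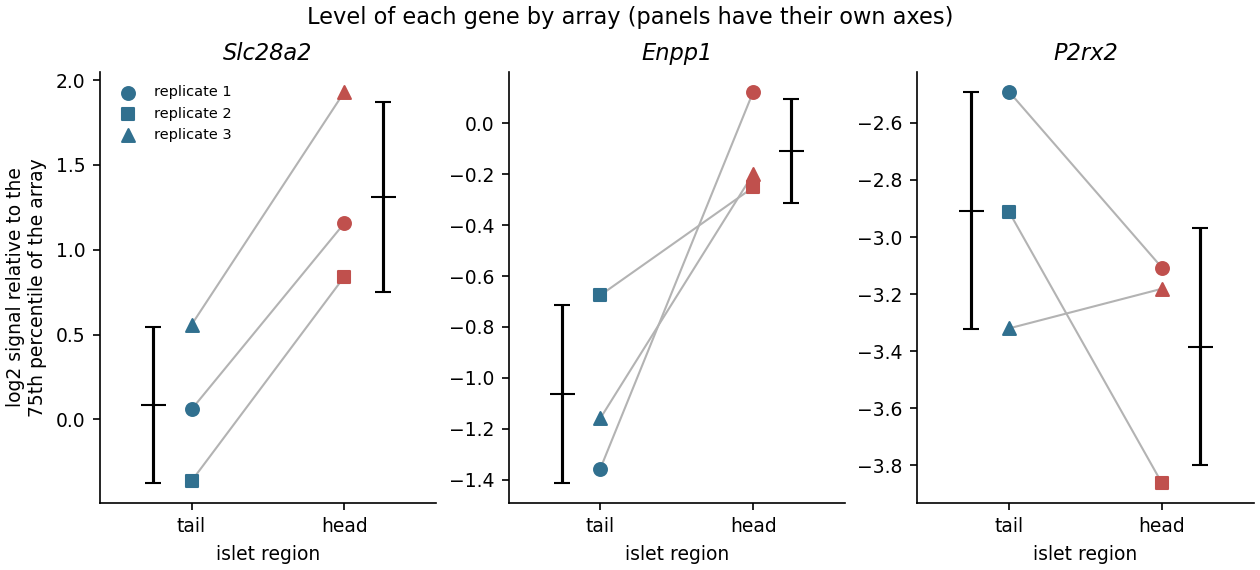
Relative level (log2) of each gene on each of the 6 arrays, tail in blue and head in red, with grey lines joining same-numbered arrays and bars giving the mean and SD of 3 arrays. The lines of Slc28a2 run nearly in parallel, those of Enpp1 all rise with unequal slopes, and those of P2rx2 cross.

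Ranks do not depend on how an array is scaled, and those of Slc28a2 and Enpp1 put the 6 arrays in the same order as their relative levels did. The Slc28a2 probe was brighter than 75.4%, 71.5% and 80.04% of the probes on tail arrays 1, 2 and 3 and than 82.5%, 81.03% and 87.1% on head arrays 1, 2 and 3. For Enpp1 the percentiles were 62.2, 68.2 and 62.5 in the tail and 75.8, 72.9 and 73.4 in the head. Both genes moved up the order of probes in the head without overlap of the regions. P2rx2 stood at percentiles 48.4, 39.8 and 33.4 in the tail and 42.4, 33.03 and 41 in the head, where the regions overlapped. Such a percentile is the rank of a probe's brightness, which also depends on the probe.

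The lean of each gene has to be read against that of the array as a whole. The median difference over all 32183 tested probes was -0.23, so a probe at the middle of the array was itself a little lower in the head on this scale. Relative to that median, Slc28a2 was 1.45 and Enpp1 1.18 higher in the head, and P2rx2 0.25 lower (-0.25). The difference of Slc28a2 exceeded that of 98.2% of tested probes, that of Enpp1 95.7% and that of P2rx2 34.2%. Slc28a2 and Enpp1 were 2 of the 5 named genes of 27 whose head arrays all lay above the tail arrays. Over all probes with 6 values, 24.9% had no overlap between regions in either direction and 5.09% had none with the head higher. The head array was above its same-numbered tail array in all 3 pairs for Slc28a2 and Enpp1, and for 17.6% of all probes. These shares are given as background only, since the members were chosen on this contrast.

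**Figure D3:**
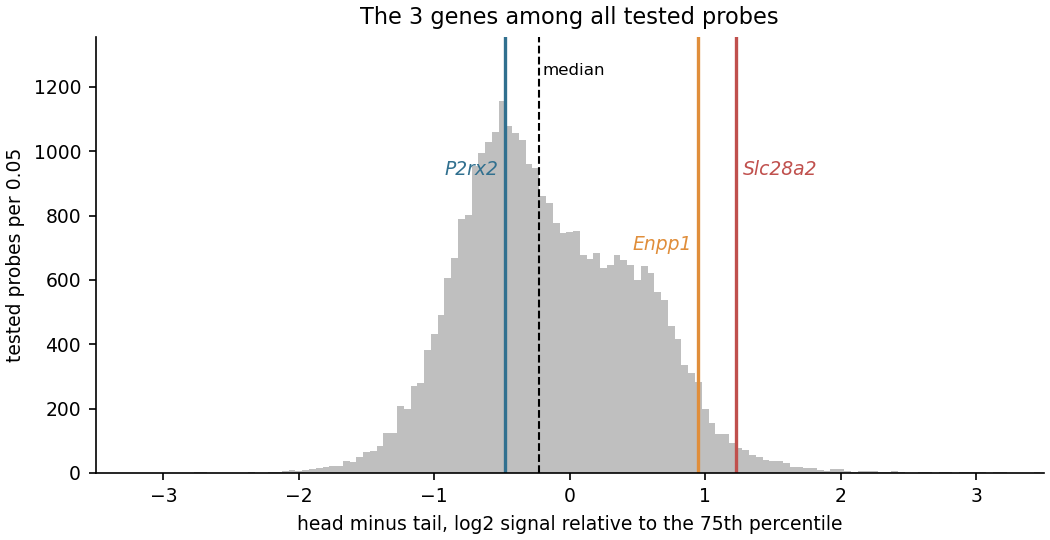
Number of tested probes at each head minus tail difference (bins of 0.05 log2 units), with lines for the 3 genes and a dashed line for the median of all tested probes at -0.23. Slc28a2 at 1.23 and Enpp1 at 0.95 lie in the upper tail, and P2rx2 at -0.48 lies near the peak of the distribution.

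Pair by pair, the place of each gene among all tested probes varied. The difference of Slc28a2 exceeded that of 96.2%, 96.5% and 93.3% of probes in pairs 1, 2 and 3. That of Enpp1 exceeded 98.2%, 77.9% and 84.1%, with pair 1 the highest. That of P2rx2 exceeded 17.1%, 12.1% and 64%. In pair 3 the difference of P2rx2 was above the median of all probes (-0.31), while in pairs 1 and 2 it was below.

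**Figure D4:**
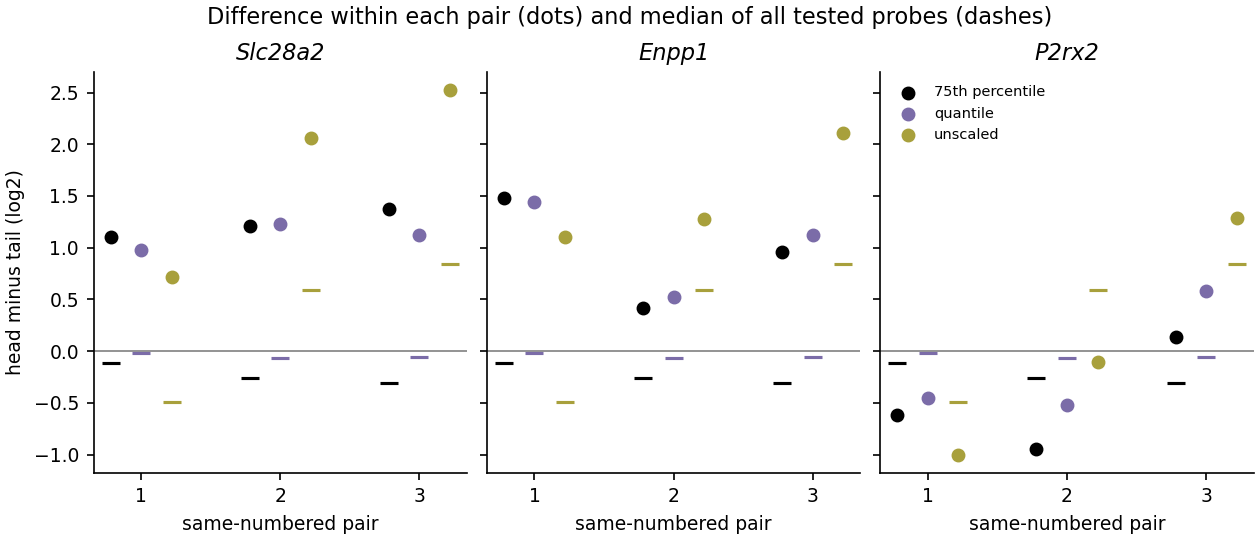
Head minus tail difference of each gene within same-numbered pairs 1 to 3 (dots, log2) after scaling to the 75th percentile, after quantile normalization and unscaled, with the median of all tested probes under the same scaling as a dash. Slc28a2 and Enpp1 lie above 0 and above the dash in each pair under each scaling, and P2rx2 lies above its dash in pair 3 and below it in pairs 1 and 2.

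The scaling set the size of the differences, and for P2rx2 the sign. Unscaled, the difference was 1.77 for Slc28a2 and 1.49 for Enpp1, with a median of 0.31 over all tested probes. For P2rx2 it was 0.07 unscaled (SE 0.54), with -1.0, -0.10 and 1.29 in the 3 pairs. After quantile normalization the differences were 1.11 (SE 0.40) for Slc28a2, 1.03 (SE 0.28) for Enpp1 and -0.13 (SE 0.35) for P2rx2, and Slc28a2 then exceeded 96.3%, Enpp1 95.4% and P2rx2 45.1% of tested probes. In the authors' deposited table Slc28a2 read 7.48, 7.02 and 8.12 in tail replicates 1 to 3, and 8.48, 8.26 and 9.21 in head replicates 1 to 3. Enpp1 read 6.07, 6.66 and 6.11 in the tail and 7.55, 7.19 and 7.25 in the head of the authors' deposited table, so neither gene overlapped between regions there. P2rx2 read 4.91, 4.23 and 3.74 in the tail and 4.45, 3.71 and 4.34 in the head of the authors' deposited table, and overlapped.

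Contrasts between the genes on the same array are unaffected by a scaling that shifts a whole array, though not by quantile normalization or background correction. Slc28a2 minus P2rx2 was larger in the head than in the tail by 1.70 log2 units, with 1.72, 2.16 and 1.24 in pairs 1, 2 and 3 and no overlap of the regions. Enpp1 minus P2rx2 was larger in the head by 1.43, with 2.10, 1.37 and 0.82 in the 3 pairs, also without overlap. After quantile normalization these contrasts were 1.24 and 1.16, and that of Slc28a2 with P2rx2 then overlapped between regions, as it did in the authors' deposited table. After normexp with quantile normalization they were 0.95 and 0.72, without overlap. Slc28a2 and Enpp1 differed from each other by 0.27 between regions, with -0.38, 0.78 and 0.42 in the 3 pairs and overlapping arrays, so neither led in all pairs. These contrasts rest on the same arrays that chose the genes, and on a dim P2rx2 signal.

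**Figure D5:**
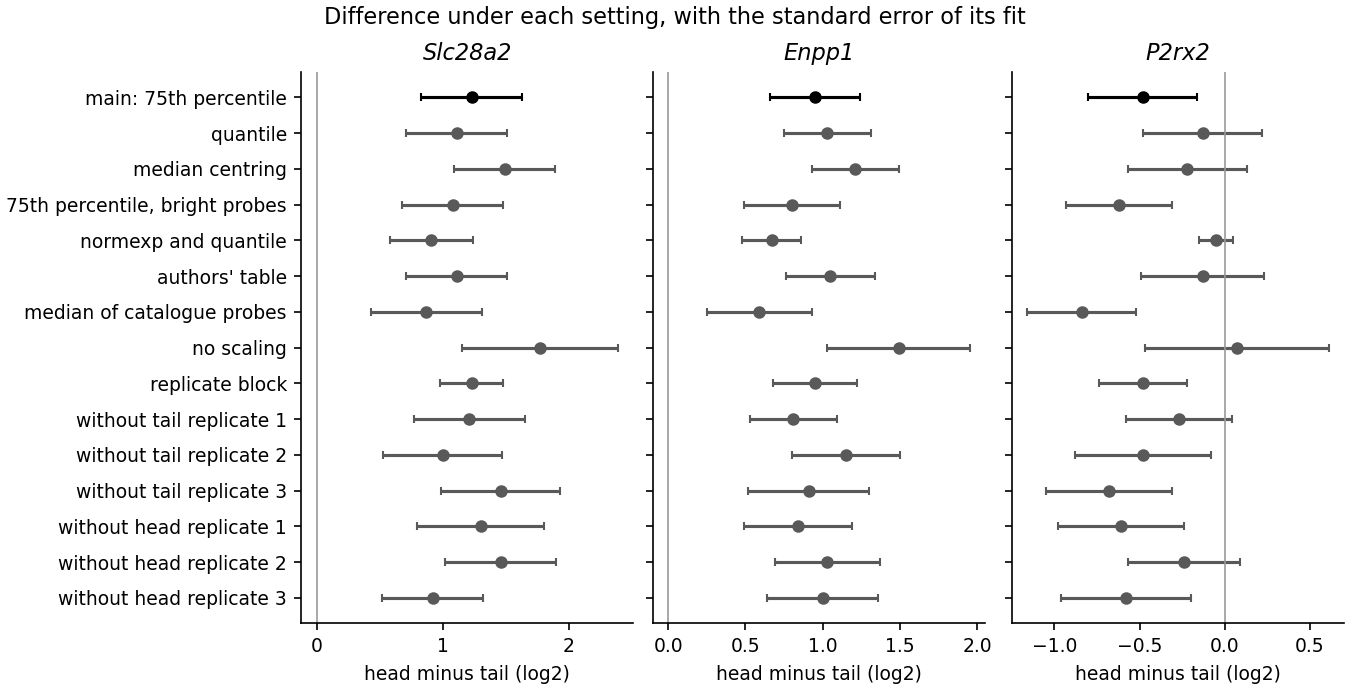
Head minus tail difference (log2) of each gene under the main setting, other scalings and background corrections, the replicate block and leaving out each array, with bars of 1 standard error of that fit. Slc28a2 stays between 0.87 and 1.77 and Enpp1 between 0.59 and 1.49, while P2rx2 runs from -0.84 to 0.07.

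Among the other named genes, the pattern most like that of Slc28a2 over the 6 arrays was that of Ndfip2, which brings Nedd4-type ubiquitin ligases to their substrates (Pearson r of the relative levels 0.96, n = 6 arrays), followed by Nat1, an arylamine N-acetyltransferase (0.92), and Ldha, lactate dehydrogenase A (0.90). An r as high as that of Ndfip2 was reached by 0.704% of all tested probes, and one as high as that of Ldha by 2.61%. For Enpp1 the nearest were Cyp2e1, an ethanol-metabolising cytochrome P450 (0.74), Ldha (0.74) and Ndfip2 (0.72), and 1.62% of probes reached the r of Cyp2e1. For P2rx2 they were Dlg4, which encodes the synaptic scaffold PSD-95 (0.74), Map2, a microtubule-associated protein (0.70), and Pdk3, a pyruvate dehydrogenase kinase (0.68), and 6.55% of probes reached the r of Dlg4. The least alike were Med16, a Mediator subunit, for Slc28a2 (-0.91) and for Enpp1 (-0.66), and Cyp2e1 for P2rx2 (-0.85). Between the members themselves r was 0.64 for Slc28a2 with Enpp1, -0.42 for Slc28a2 with P2rx2 and -0.49 for Enpp1 with P2rx2. An r of 0.64 was reached by 15.2% of probes with Slc28a2 and by 3.68% with Enpp1. The r of P2rx2 was reached by 54.5% of probes with Slc28a2 (median r -0.33) and by 71.1% with Enpp1 (median -0.18). With P2rx2 the median r was 0.10, and 86.9% and 90.3% of probes reached the r of Slc28a2 and Enpp1. These correlations share the arrays, their scaling and the regional contrast, and are given as descriptions.

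Across the whole array, 0 of 32183 tested probes (0%) had a limma adjusted p under 0.05, while 6169 had an unadjusted p under 0.05, and 1 passed with the replicate number as a block and 2 in the authors' deposited value table. Between 78.3% and 86.5% of probes per array were well above background. The 3 tail arrays shared a scan identifier, and the head arrays carried 2 others. Each identifier was taken here as a slide, so slide and region cannot be told apart for any value above. Tail replicate 1 correlated better with head replicates 1, 2 and 3 (Pearson r over tested probes 0.975, 0.945 and 0.948) than with the other tail arrays (0.934 and 0.931). Without it the difference was 1.21 for Slc28a2, 0.81 for Enpp1 and -0.27 for P2rx2. That of Enpp1 then exceeded 84.1% of tested probes rather than 95.7%. For Slc28a2 this share was 94.5% rather than 98.2%, and for P2rx2 51.4% rather than 34.2%. The difference of P2rx2 also came closer to 0 without head replicate 2, at -0.24.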

How the data were processed

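Per the labels' protocols, rRNA and tRNA were depleted from the islet RNA of 3 head and 3 tail samples, which was then copied into Cy3 cRNA from random primers. The authors deposited intensity values per spot from Agilent Feature Extraction (version 11.0.1.1 in the submitters' processing notes), background-subtracted and not normalized between arrays. The authors' deposited value table holds log2 values (38862 rows, with a median of 5.04 in the first column). The 3 genes read alike at like percentiles of different columns, as quantile normalization would give. Slc28a2 read 7.48 at percentile 75.3 in tail replicate 1, and Enpp1 read 7.55 at percentile 75.8 in head replicate 1. The making of the table is otherwise not given in the sources used here.

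Control spots and outlier spots (130 to 177 per array) were left out, spots of a probe were averaged as log2, and the values of an array were centred on its 75th percentile (all probes). The normexp alternative used the median spot signal. Probes well above background (at least 50% of spots) on at least 3 of 6 arrays, with at least 2 values per region, were tested (32183 of 38804). The regional difference was estimated by limma 3.58.1 (eBayes with trend) under R 4.3.3, with Benjamini-Hochberg adjustment. The fit was tested on simulated data. SEs of genes come from this model. The number of arrays limits the precision. Accessions of 50 catalogue probes were matched without versions to RefSeq symbols (GRCr8), which named 30 genes.

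The members and lists were chosen with earlier results of these data known. Genes named are the members and, for each, the 3 named genes of highest Pearson r with it over the arrays. Same-numbered samples were treated as pairs because the protocol cuts each pancreas into both parts. The labels do not say whether they share animals, and the pairing also drew on these arrays. The r of deviations from region means was 0.51, 0.75 and 0.29 for same-numbered arrays 1, 2 and 3. Between head and tail arrays of different numbers it reached 0.22, so number 3 stood little apart. Alternatives were other scalings and background corrections, the authors' table, spot summaries, the replicate block, slide as a random block and leaving out each array.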

Additional observations from a re-analysis of the deposited data

How the results depend on the processing

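The direction of Slc28a2 and Enpp1 held under all 17 alternatives run for each, but for some of these that was fixed in advance. With each head array above each tail array, leaving out an array could not turn the sign. The replicate block cannot change the difference in a balanced design. The alternatives without scaling or scaled to the median of catalogue probes were chosen after seeing the data. Without scaling the difference was 1.77 for Slc28a2, 1.49 for Enpp1 and 0.07 for P2rx2, whose sign turned. Scaled to the median of the catalogue probes, Enpp1 differed by 0.59 and Slc28a2 by 0.87, and the arrays of Slc28a2 then overlapped between regions. Quantile normalization alone gave -0.13 for P2rx2, and normexp background correction with quantile normalization gave -0.05. Leaving out each array gave 0.92 to 1.46 for Slc28a2, 0.81 to 1.15 for Enpp1 and -0.68 to -0.24 for P2rx2. The replicate block left the differences at 1.23, 0.95 and -0.48 and changed the SE from 0.40 to 0.25, from 0.29 to 0.27 and from 0.32 to 0.26.

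Over all probes, the number without overlap (7980, 24.9%) was 5743 after quantile normalization, 5585 after normexp with quantile normalization and 5715 in the authors' deposited table (17.4% to 17.9%). It lay between 8402 and 19844 when an array was left out, which makes overlap less likely by construction, and was highest without tail replicate 1 and next, at 13578, without head replicate 2. The number past the adjusted limma threshold (0) was 2 in the authors' deposited table, 3 without scaling, 1 with the replicate block and 6099 with slide as a random block, at an estimated correlation within slides of -0.32 that cannot correct the contrast for slide. Leaving out an array gave 0 to 3, with 3 without tail replicate 3. P2rx2 had the lowest signal over background of the 3 genes on each array.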
